A study of Sus scrofa with 24 samples.

Results

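Liver transcripts of the drug-metabolizing cytochromes P450 of families CYP2 to CYP4 and of the conjugating and epoxide-hydrolysing enzymes were followed in 24 pigs. The genes were taken by symbol from the deposited count table: every CYP2, CYP3 or CYP4 gene, and every gene whose symbol begins with UGT, SULT, GST or EPHX, with a total of at least 100 counts over the 24 libraries. By symbol 32 of its 13463 genes matched and 23 had enough counts, namely 7 CYP2, 1 CYP3, 3 CYP4, 2 UGT, 4 SULT, 5 GST genes and 1 EPHX gene. The lowest inside the limit were EPHX3 with 411 counts and CYP2S1 with 415, and the highest outside it were SULT1C4 with 66 counts and CYP4F22 with 62. The other 7 matching genes, CYP4B1, SULT2B1, CYP2F1, SULT4A1, CYP2W1, EPHX4 and SULT6B1, had between 0 and 25 counts in all.

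The pigs were growers of a Large White, Landrace and Duroc cross. Sustanon, an oily mixture of testosterone esters, was injected into the neck muscle at 4 mg/kg in 8 pigs (3 sows, 3 castrated boars and 2 uncastrated boars), and Myodin, a nandrolone ester in oil, at 5 mg/kg in 8 pigs (3 sows, 2 castrated boars and 3 uncastrated boars). A further 8 pigs were untreated controls (3 sows, 3 castrated boars and 2 uncastrated boars). The labels call the females sows, the study calls them gilts, and its barrows and Myodine are the castrated boars and Myodin of the labels. Each library is 1 pig. Each group was kept in its own pen and the controls in a room apart, so pen or room and treatment cannot be told apart, and no vehicle injection of the controls is described in the sources used here.

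Cytochromes P450 are haem enzymes of the endoplasmic reticulum that insert oxygen into steroids, fatty acids and drugs, with electrons passed on by cytochrome P450 oxidoreductase. The products, and many steroids directly, are then joined to glucuronic acid by the UDP-glucuronosyltransferases (UGT), to sulfate by the sulfotransferases (SULT) or to glutathione by the glutathione S-transferases (GST), while epoxide hydrolases (EPHX) open epoxides with water. In the liver many of these genes are controlled by the nuclear receptors CAR, PXR and PPAR alpha and by the aryl hydrocarbon receptor, and several are known to differ between the sexes.

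Library totals ran from 9267780 to 14017276 counts, and the 23 genes together took between 0.623% and 1.58% of the counts of a library. KDM5D, a gene of the Y chromosome, was used to check the labelled sex. It had 35 counts in control sow 16 and 95 counts in control sow 18, and 0 in control castrated boar 15, which go against their labels. These libraries were kept under their labels, and the calls that rest on them are given with and without them. Control castrated boar 15 is also absent from the study's heat map. The column name of Sustanon sow 6 in the count table carries the group tag of the Sustanon castrated boars. Its group was kept from the sample title, and it had 0 counts of KDM5D. Markers of hepatocytes were abundant in every library, with a summed level of 97643 to 220543 TPM (transcript share corrected for length) over the 7 of 10 listed markers in the table. In bulk tissue, fewer cells of a type and less RNA per cell cannot be told apart.

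Per transcript length, the most abundant of the 23 genes were GSTA1 (2714 TPM on average over the 24 pigs), which conjugates electrophiles to glutathione, CYP3A29 (1670.3 TPM), the main porcine CYP3A enzyme and a testosterone hydroxylase, and SULT2A1 (1197 TPM), the hydroxysteroid sulfotransferase. CYP2D6 followed at 1131 TPM. A second tier between 100 and 500 TPM held CYP2A19 (434), UGT2B31 (375), GSTZ1 (299), CYP4A24 (194) and SULT1A3 (104). These 9 genes spanned oxidation and each kind of conjugation. The levels of EPHX3, GSTCD, CYP4F3 and CYP2S1 averaged under 2 TPM. Neighbours in this order mostly overlapped: GSTA1 ranged from 1202 to 4238 TPM and CYP3A29 from 661 to 4031 TPM, and in CPM, library-scaled counts that ignore length, CYP3A29 ranked first. Relative to its lowest value CYP2A19 had the widest range of these 9 genes, from 1.15 to 1755 TPM, and CYP2B6B ran from 2.61 to 406 TPM, whereas CYP2D6 stayed between 681 and 1719 TPM.

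**Figure D1:**
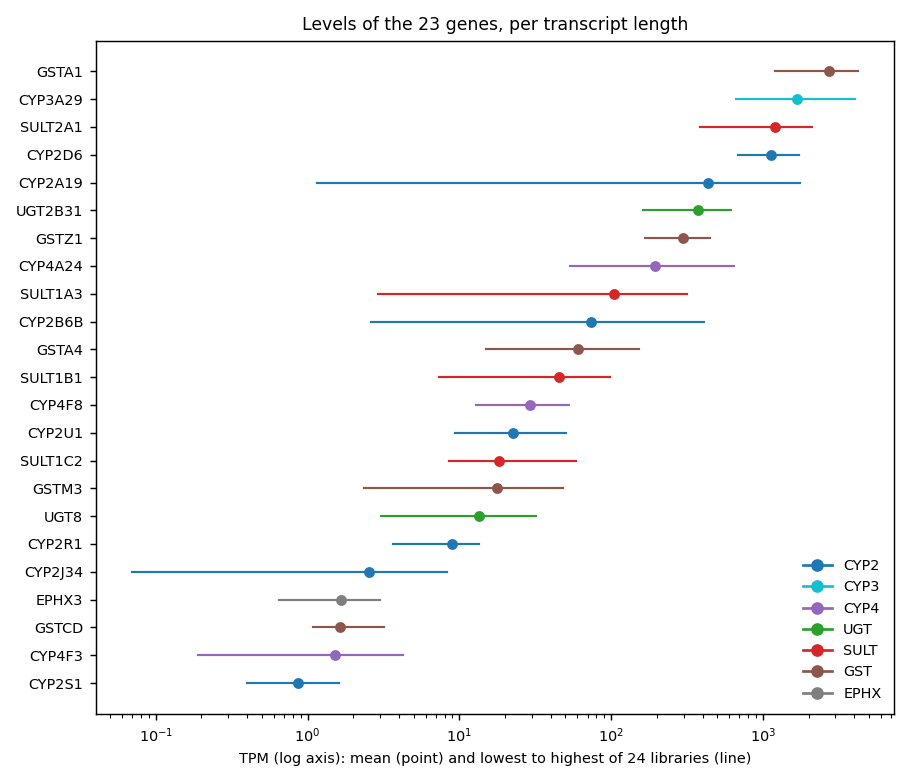
Level of each of the 23 genes in TPM on a log axis, with the mean over the 24 libraries as a point and the lowest to highest library as a line, coloured by gene family. GSTA1, CYP3A29, SULT2A1 and CYP2D6 have the highest means, and CYP2A19, CYP2B6B, CYP2J34 and SULT1A3 have the longest lines.

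Sustanon was first compared with control over all pigs, the comparison used by the study. CYP2B6B, CYP4A24 and UGT8 rose and the sulfotransferases SULT1A3 and SULT1B1 fell. In the edgeR fit of the 3 treatment groups 5 of the 23 genes were called at an adjusted p under 0.05, 3 higher and 2 lower, against 5.07% of the 8279 tested genes, 3.39% higher and 1.68% lower. All 5 also changed by at least 1 on the log2 scale, as did 1.56% of tested genes. At an unadjusted p under 0.05 there were 11 of the 23 genes, against 19.6% of all tested genes. Sustanon and control pigs overlapped for each of the 23 genes, where 0.471% of tested genes did not overlap. The median absolute log2 fold change was 0.55 over the 23 genes and 0.15 over all tested genes, and the signs were split, 11 positive and 12 negative.

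These 5 calls depended on which pigs were included. Over the 24 fits that left out 1 library the log2 fold changes of the 5 genes kept their sign, that of SULT1A3 running from -3.23 to -2.47 and that of CYP2B6B from 2.87 to 3.91. The count of called genes was 0 when Sustanon castrated boar 2, Sustanon sow 5, Sustanon uncastrated boar 19 or control castrated boar 14 was left out (263, 211, 198 and 277 of all tested genes called, in that order), and 1 without Sustanon uncastrated boar 20, control sow 17 or control castrated boar 15. It was 2 without control castrated boar 13, control sow 16 or control sow 18, and 3 without Sustanon sow 6. Without the 3 libraries that go against their labels it was 0 by edgeR, with 9 of the 23 and 14.2% of tested genes at an unadjusted p under 0.05 (DESeq2 was not run without them), as was the count over all genes, and every log2 fold change of the 5 genes kept its sign, with adjusted p from 0.126 for SULT1B1 to 0.221 for UGT8.

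The pigs without testes, castrated boars and sows, were then compared in 1 fit of the 9 groups of treatment and sex class. With Sustanon, CYP2B6B rose and SULT1A3 and SULT1B1 fell. These 3 of 23 genes were called, against 5.32% of the 8754 genes tested, 3.27% higher and 2.06% lower, and 8 had an unadjusted p under 0.05, against 19.8% of all tested genes. The median absolute log2 fold change was 0.66 over the 23 genes and 0.18 over all tested genes. CYP2B6B and SULT1A3 were called in all 24 fits that left out 1 library and SULT1B1 in 5 of them, SULT1B1 having an adjusted p of 0.138 without the 3 libraries that go against their labels. Without the 3 libraries that go against their labels edgeR called 0 of the 23 and 70 of all tested genes, 7 of the 23 and 13.3% of tested genes had an unadjusted p under 0.05, and DESeq2 was not run without them.

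Myodin left no gene of the 23 past the threshold. Over all pigs edgeR called 0 of the 23 and 0% of tested genes, with 2 of the 23 (CYP2S1 and CYP2B6B) and 7.21% of tested genes at an unadjusted p under 0.05. In pigs without testes it called 0 of the 23 and 0.0571% of tested genes, with 1 of the 23 (SULT2A1) and 10.5% of tested genes at an unadjusted p under 0.05. DESeq2 and limma also called 0 of the 23 in both contrasts. The intervals were wide: for CYP2B6B in pigs without testes the 95% interval of the log2 fold change ran from -1.45 to 1.16, and for CYP2A19 from -4.16 to 0.37.

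The contrast of uncastrated with castrated boars, averaged over control and Myodin pigs and leaving Sustanon pigs out, compared boars with and without testes. CYP2B6B was higher in uncastrated boars, the single call among the 23, against 0.8% of tested genes, and 4 of the 23 and 15.6% of tested genes had an unadjusted p under 0.05. CYP2B6B and SULT1A3 did not overlap between these groups of 5 pigs each, which held for 3.39% of tested genes. Leaving out Myodin uncastrated boar 22 moved the count of called genes from 1 to 4 (CYP2B6B, GSTM3, SULT1A3 and SULT1B1). Castrated boars were set against sows over the 3 treatments, and edgeR called 0 of the 23 genes and 0.0685% of tested genes, with 2 of the 23 (GSTA4 and GSTM3) and 11.5% of tested genes at an unadjusted p under 0.05. Whether Sustanon acted differently in uncastrated boars than in pigs without testes was tested as an interaction, which called 0 of the 23 and 0.0571% of tested genes, with 2 of the 23 (UGT2B31 and SULT1C2) and 7.46% of tested genes at an unadjusted p under 0.05. DESeq2 and limma called 0 of the 23 in the last 2 contrasts.

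**Figure D2:**
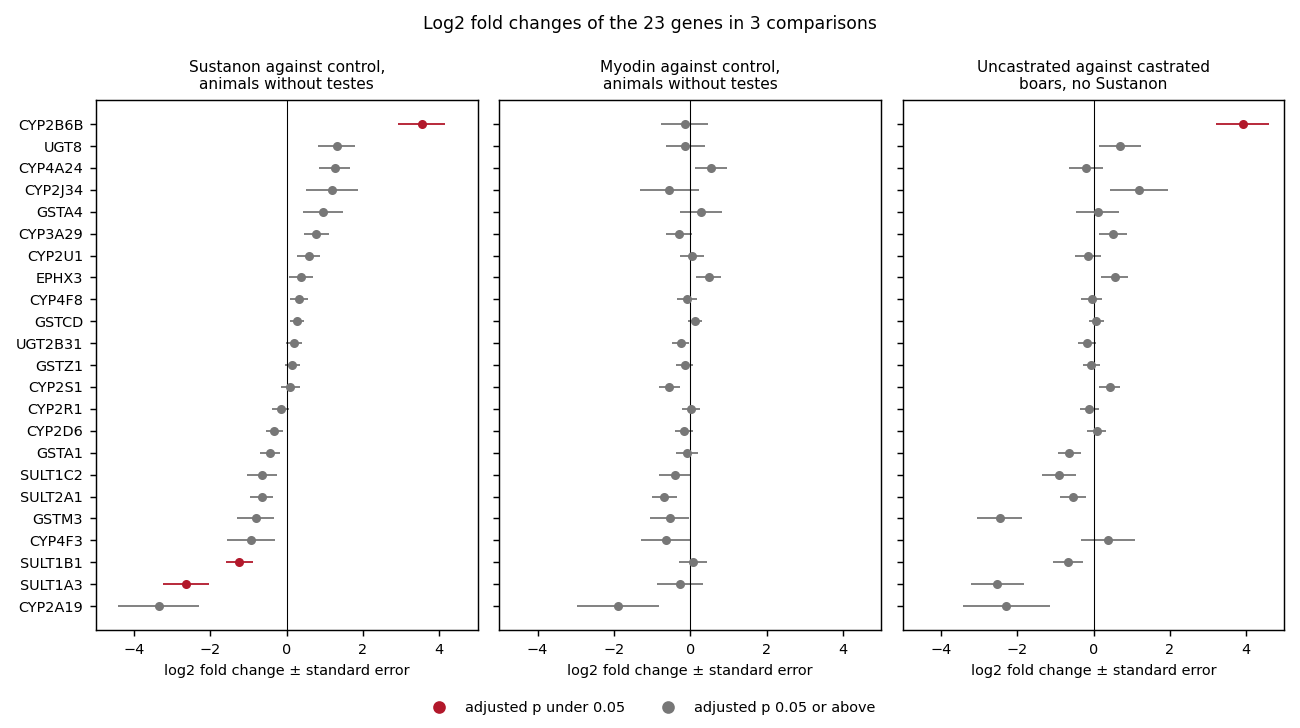
Log2 fold changes with standard errors of the 23 genes from the edgeR fit of 9 groups, for Sustanon against control and Myodin against control in pigs without testes and for uncastrated against castrated boars without Sustanon. Red points have an adjusted p under 0.05: CYP2B6B at 3.53, SULT1A3 at -2.64 and SULT1B1 at -1.25 on the left, none in the middle and CYP2B6B at 3.90 on the right.

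Among the P450 genes, CYP2B6B had the largest rise. Enzymes of the CYP2B group hydroxylate steroids and drugs and are classic targets of CAR. Its CPM in the controls were 31.9, 10.1 and 10.3 in sows 16, 17 and 18, 8.49, 10.4 and 4.96 in castrated boars 13, 14 and 15, and 79.3 and 29.7 in uncastrated boars 25 and 27. With Sustanon the values were 184, 193 and 84.8 in sows 4, 5 and 6, 97.1, 246 and 24.2 in castrated boars 1, 2 and 3, and 360.1 and 639 in uncastrated boars 19 and 20. With Myodin they were 6.11, 11.7 and 19.5 in sows 10, 11 and 12, 4.85 and 12.7 in castrated boars 8 and 9, and 45.4, 603 and 230.4 in uncastrated boars 22, 23 and 24. All Sustanon values of pigs without testes but that of castrated boar 3 lay above every control, and every Myodin value of pigs without testes lay within or below the range of controls without testes. All uncastrated boars stood above the castrated boars of their own treatment.

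In pigs without testes CYP2B6B averaged 138 ± 82.7 CPM with Sustanon (SD, n = 6) and 12.7 ± 9.64 CPM in controls (n = 6), a log2 fold change of 3.53 (SE 0.61, edgeR adjusted p = 0.00252). Over all pigs it was 3.30 (SE 0.91, adjusted p = 0.0354), with 7 of 8 Sustanon pigs above every control. The mean log2 CPM differed by 3.26 in sows, 3.42 in castrated boars and 3.30 in uncastrated boars, and the interaction was -0.35 (95% interval -2.62 to 1.93). Without the 3 libraries that go against their labels the log2 fold change in pigs without testes was 3.80 with an adjusted p of 0.0726.

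CYP2B6B was also higher in uncastrated than in castrated boars. Uncastrated boars without Sustanon averaged 198 ± 240.3 CPM (SD, n = 5) and castrated boars 8.29 ± 3.44 CPM (n = 5), a log2 fold change of 3.90 (SE 0.71, adjusted p = 0.0143), and of 3.78 (adjusted p = 0.0413) without the libraries that go against their labels. The call was lost without Myodin castrated boar 8, Myodin castrated boar 9 or control uncastrated boar 25, the highest adjusted p being 0.103. The highest were Myodin uncastrated boars 23 and 24. Myodin and control uncastrated boars differed by 1.93 in mean log2 CPM, and over all pigs the log2 fold change with Myodin was 2.33 (SE 0.88, adjusted p = 0.543), with 2 of 8 Myodin pigs above every control, and it was 1.03 without Myodin uncastrated boar 23.

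CYP2A19, the porcine CYP2A enzyme that oxidizes skatole, on chromosome 6 at 49056579 to 49064111, went the other way with a very wide spread. Control sows had 1637, 828 and 792 CPM and control castrated boars 596, 1833 and 1319.8 CPM, whereas control uncastrated boars had 6.76 and 180.0 CPM. With Sustanon the values were 668, 4.50 and 46.9 CPM in sows, 17.3, 15.4 and 130.5 CPM in castrated boars and 1.04 and 2.002 CPM in uncastrated boars. With Myodin they were 151, 737 and 606 CPM in sows, 308 and 81.5 CPM in castrated boars and 303, 3.57 and 28.5 CPM in uncastrated boars. Among pigs without testes 5 of 6 Sustanon values were below every control, the exception being sow 4, and over all pigs 3 of 8 were. The log2 fold change was -3.36 (SE 1.06, adjusted p = 0.0698) in pigs without testes and -3.02 (SE 1.11, adjusted p = 0.116) over all pigs, so edgeR did not call it, while DESeq2 and limma called it in both contrasts. The edgeR fit with sex class as covariate also called it over all pigs (-3.56, adjusted p = 0.0326), as did the fit without Sustanon sow 4 (-4.85, adjusted p = 0.0161). In pigs without testes it was called in 4 of 24 fits that left out 1 library, and without the libraries that go against their labels it was -3.14 (adjusted p = 0.268). For Myodin in pigs without testes it was -1.89 (SE 1.08, adjusted p = 0.568), with 3 of 5 pigs below every control, and for uncastrated against castrated boars it was -2.29 (SE 1.14, adjusted p = 0.344).

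**Figure D3:**
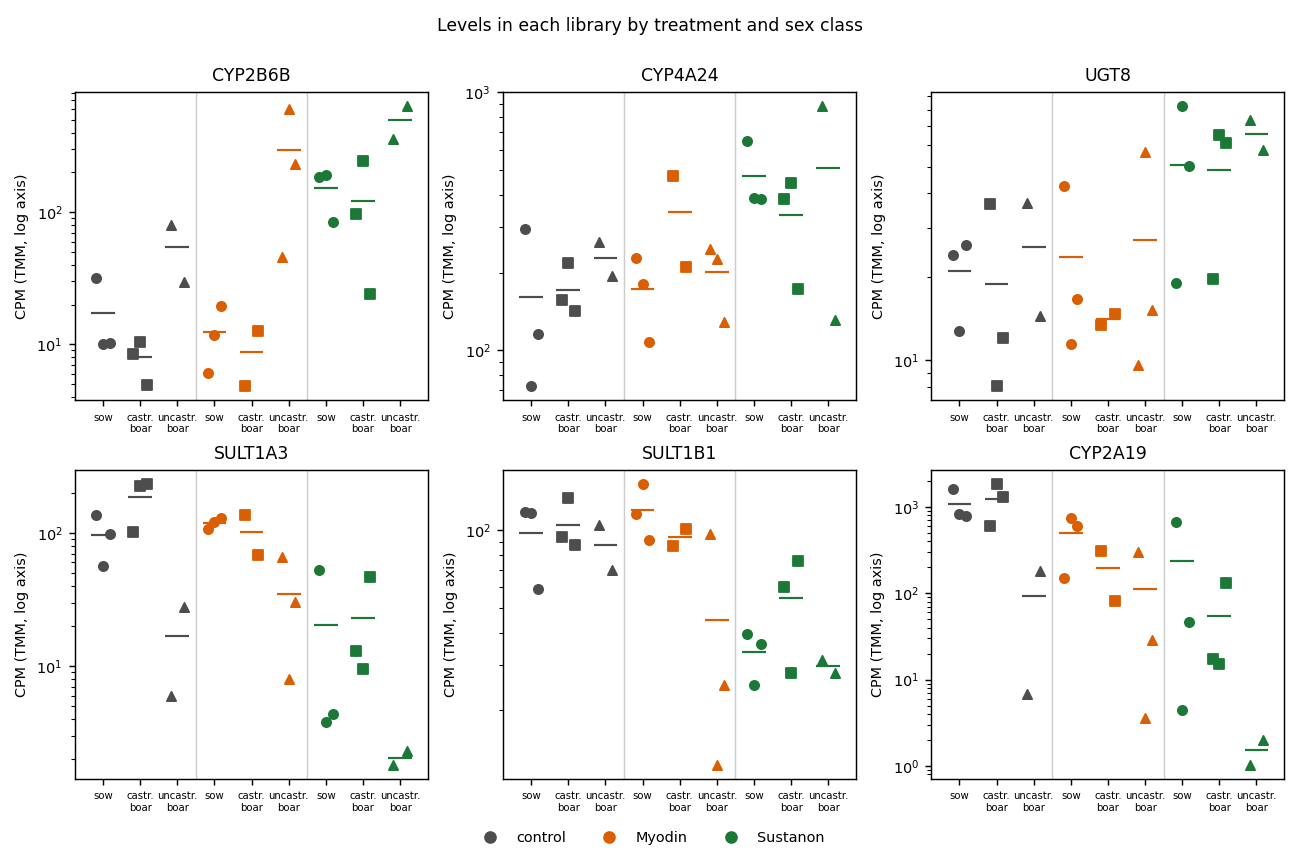
CPM on a log axis in each of the 24 libraries for 6 genes, by treatment (colour) and sex class (marker shape), with the mean of each group of 2 or 3 pigs as a line. CYP2B6B is high in Sustanon pigs and in uncastrated boars, SULT1A3 and CYP2A19 are mostly low in both, and SULT1B1 is low in Sustanon pigs and in Myodin boars 23 and 24.

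CYP3A29, on chromosome 3 at 6738502 to 6778121 of Sscrofa11.1, was not called with Sustanon by the edgeR fits of 3 and 9 groups. Its values in Sustanon pigs lay on both sides of the control range. Controls ran from 1678 to 3539 CPM with a median of 2586 CPM. Sustanon sows had 8268, 6914 and 4443 CPM, uncastrated boars 5229 and 4350.4 CPM and castrated boars 1443, 5821 and 1623 CPM. Thus 6 of 8 Sustanon pigs lay above every control and castrated boars 1 and 3 below every control. The log2 fold change was 0.92 (SE 0.31, adjusted p = 0.0844) over all pigs and 0.78 (SE 0.32, adjusted p = 0.180) in pigs without testes. Over all pigs DESeq2 called CYP3A29, as did edgeR without Sustanon castrated boar 1 or 3. Of the Myodin pigs, uncastrated boars 23 and 24 had 5424 and 4195 CPM and the other 6 had 1592 to 2803 CPM. Boars 23 and 24 were also the 2 Myodin pigs with the highest CYP2B6B.

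CYP4A24, a fatty acid hydroxylase on chromosome 6 at 164496928 to 164518189, was called over all pigs by edgeR. Controls ran from 72.7 to 295 CPM with a median of 175 CPM. Sustanon sows had 650.2, 389 and 385 CPM, castrated boars 385, 445 and 173 CPM and uncastrated boars 889 and 131 CPM. All but castrated boar 3 and uncastrated boar 20 were above every control. The log2 fold change was 1.24 (SE 0.34, adjusted p = 0.0344) over all pigs and 1.25 (SE 0.40, adjusted p = 0.0767) in pigs without testes. Over all pigs the call was kept in 15 of 24 fits that left out 1 library. Limma at pseudocounts 1 and 0.1 did not make it (adjusted p = 0.0543 and 0.0555). In pigs without testes DESeq2 called CYP4A24 (1.26, adjusted p = 0.0352), as did 3 of 24 edgeR fits that left out 1 library. With Myodin over all pigs it was 0.31 (SE 0.34, adjusted p = 0.911), or 0.06 without Myodin castrated boar 8, and uncastrated and castrated boars differed by -0.19 (SE 0.44, adjusted p = 0.877).

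CYP2U1, which hydroxylates long-chain fatty acids, had a log2 fold change of 0.86 with Sustanon over all pigs (SE 0.29, adjusted p = 0.0813), and 5 of 8 Sustanon pigs, at 119 to 204 CPM, were above the highest control of 104 CPM and 1, castrated boar 3 at 46.7 CPM, below the lowest. DESeq2 called CYP2U1 over all pigs, as did edgeR without Sustanon castrated boar 1 or 3. CYP2D6 averaged 1233 ± 387 CPM in controls, 1135 ± 249 CPM with Myodin and 997 ± 147 CPM with Sustanon (SD, n = 8 each), with an adjusted p of 0.338 for Sustanon. CYP2R1, a vitamin D hydroxylase, CYP4F8, CYP4F3, CYP2S1 and CYP2J34 were not called in any contrast. Of these CYP2J34 spread most, from 0.322 to 23.2 CPM, and CYP2S1 had the smallest unadjusted p with Myodin over all pigs, at a log2 fold change of -0.64 (SE 0.21, adjusted p = 0.462).

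Both SULT1 genes that fell with Sustanon belong to the phenol sulfotransferases. SULT1A3, for which RefSeq also lists the name SULT1A1, lies on chromosome 3 at 18351205 to 18354653. Control sows had 135, 56.6 and 97.6 CPM, control castrated boars 101, 224 and 232 CPM and control uncastrated boars 5.96 and 27.6 CPM. With Sustanon the values were 52.4, 3.81 and 4.37 CPM in sows, 12.96, 9.53 and 46.7 CPM in castrated boars and 1.82 and 2.29 CPM in uncastrated boars. With Myodin they were 108, 121 and 130.01 CPM in sows, 136 and 68.5 CPM in castrated boars and 66.4, 7.99 and 30.2 CPM in uncastrated boars. Without testes, every Sustanon value lay below every control and every Myodin value. It was the single gene of the 23 whose Sustanon and control groups did not overlap there, against 3.22% of tested genes.

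The SULT1A3 level in pigs without testes averaged 21.6 ± 21.96 CPM with Sustanon and 141 ± 71.8 CPM in controls (SD, n = 6 each), a log2 fold change of -2.64 (SE 0.61, adjusted p = 0.0158). Over all pigs it was -2.72 (SE 0.71, adjusted p = 0.0266). The mean log2 CPM fell by 3.21 in sows, by 3.26 in castrated boars and by 2.55 in uncastrated boars. With Myodin the log2 fold change in pigs without testes was -0.27 (SE 0.61, adjusted p = 0.917). Uncastrated boars without Sustanon averaged 27.6 ± 24.3 CPM and castrated boars 152 ± 73.2 CPM (n = 5 each), which did not overlap, at a log2 fold change of -2.52 (SE 0.69, adjusted p = 0.0858), not called in the edgeR fit of 9 groups. DESeq2 and limma on log2(TPM + 1) called it, as did 2 of 24 edgeR fits that left out 1 library. The edgeR fit with 6 groups also called SULT1A3, but there uncastrated boars were set against castrated boars and sows together. Without the libraries that go against their labels, 2 of which are sows and 1 a castrated boar of the control group, the Sustanon log2 fold change in pigs without testes was -2.16 with an adjusted p of 0.189.

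SULT1B1, which sulfates thyroid hormones and phenols, had a narrower range. Controls ran from 59.2 to 133 CPM with a median of 99.6 CPM. With Sustanon sows had 39.6, 25.1 and 36.2 CPM, castrated boars 60.3, 27.8 and 76.2 CPM and uncastrated boars 31.3 and 28.0 CPM. Castrated boars 1 and 3 reached into the control range, whose lowest value was that of sow 18. The log2 fold change was -1.25 (SE 0.36, adjusted p = 0.0463) in pigs without testes and -1.27 (SE 0.34, adjusted p = 0.0308) over all pigs. Myodin uncastrated boars 23 and 24 had 12.3 and 25.1 CPM, as low as the Sustanon pigs or lower, while the other 6 Myodin pigs had 86.9 to 151 CPM. Uncastrated and castrated boars without Sustanon differed by -0.67 (SE 0.39, adjusted p = 0.425).

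SULT2A1, on chromosome 6 at 53525496 to 53536723, conjugates androgens and bile acids and is the most abundant of the sulfotransferases here. In pigs without testes it averaged 1764 ± 484 CPM in controls (SD, n = 6), 1164 ± 300.1 CPM with Myodin (n = 5) and 1159.9 ± 499 CPM with Sustanon (n = 6). The log2 fold changes were -0.67 (SE 0.32, adjusted p = 0.466) for Myodin and -0.66 (SE 0.30, adjusted p = 0.218) for Sustanon, neither of them called. Both share the same 6 controls. Control uncastrated boars had 333 and 1003 CPM. SULT1C2, another phenol sulfotransferase, had 14.1 to 93.2 CPM in controls, and its interaction of 1.92 (SE 0.79) had an adjusted p of 0.571.

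Of the glucuronosyltransferase genes, UGT8 changed and UGT2B31 did not pass the test. UGT8, on chromosome 8 at 108233134 to 108315284, transfers galactose to ceramide and so differs from the rest of the family. Controls ran from 8.06 to 36.9 CPM with a median of 19.2 CPM. Sustanon sows had 18.9, 83.0 and 50.1 CPM, castrated boars 19.6, 65.0 and 60.7 CPM and uncastrated boars 73.7 and 57.5 CPM. Thus 6 of 8 Sustanon pigs were above every control, and sow 4 and castrated boar 1 were near the control median. The log2 fold change was 1.32 (SE 0.39, adjusted p = 0.0492) over all pigs, the weakest of the 5 calls, kept in 9 of 24 fits that left out 1 library. In pigs without testes it was 1.30 (SE 0.49, adjusted p = 0.131), and with Myodin over all pigs 0.07 (SE 0.39, adjusted p = 0.996). UGT2B31, on chromosome 8 at 66310697 to 66323755, which glucuronidates steroids, averaged 696 ± 157 CPM in controls and 681 ± 215 CPM with Sustanon (SD, n = 8 each), and its interaction of -1.11 (SE 0.42) had an adjusted p of 0.522.

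No glutathione S-transferase or epoxide hydrolase gene was called in any contrast by the edgeR fits of 3 and 9 groups. GSTA1, on chromosome 7 at 46538743 to 46550781, averaged 1877 ± 545 CPM in controls, 1579 ± 501 CPM with Myodin and 1268 ± 627 CPM with Sustanon (SD, n = 8 each), and its log2 fold change of -0.57 with Sustanon (SE 0.26) had an adjusted p of 0.223. GSTA4, its neighbour at 46635903 to 46656491, which detoxifies aldehydes of lipid peroxidation, fell into low and high libraries. Control sows and castrated boars had 10.1 to 20.5 CPM except castrated boar 15 at 100.4 CPM, Myodin sows and castrated boars 11.2 to 17.7 CPM except castrated boar 8 at 110.1 CPM, and the uncastrated boars of both groups 31.97 to 82.5 CPM. With Sustanon 5 of 6 pigs without testes had 29.5 to 88.0 CPM and castrated boar 1 had 10.6 CPM. The log2 fold change of 0.95 (SE 0.52, adjusted p = 0.324) with Sustanon in pigs without testes was not called, and it was called when control castrated boar 15 was left out, a library that goes against its label. For castrated boars against sows it was 1.34 (SE 0.44, adjusted p = 0.291), 0.98 (adjusted p = 0.476) without the libraries that go against their labels, and 0.73 without Myodin castrated boar 8.

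GSTM3, a mu class transferase on chromosome 4 at 110330027 to 110332957, had the smallest p after CYP2B6B between uncastrated and castrated boars. Uncastrated boars without Sustanon had 2.94, 0.915, 1.69, 5.17 and 1.92 CPM and castrated boars 11.9, 18.6, 11.4, 20.5 and 4.03 CPM. Only Myodin castrated boar 9 and Myodin uncastrated boar 23 overlapped, and the log2 fold change was -2.46 (SE 0.59, adjusted p = 0.0553). DESeq2 called it, as did edgeR with no count filter and in 3 of 24 fits that left out 1 library. The edgeR fit with 6 groups also called GSTM3, but there uncastrated boars were set against castrated boars and sows together. GSTCD had 6 of 8 Sustanon pigs above every control and none below, with a log2 fold change of 0.47 over all pigs (SE 0.19, adjusted p = 0.166) that was not called. GSTZ1, an enzyme of tyrosine breakdown, and EPHX3 were not called, with EPHX3 at 0.681 to 2.75 CPM over all 24 pigs.

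**Figure D4:**
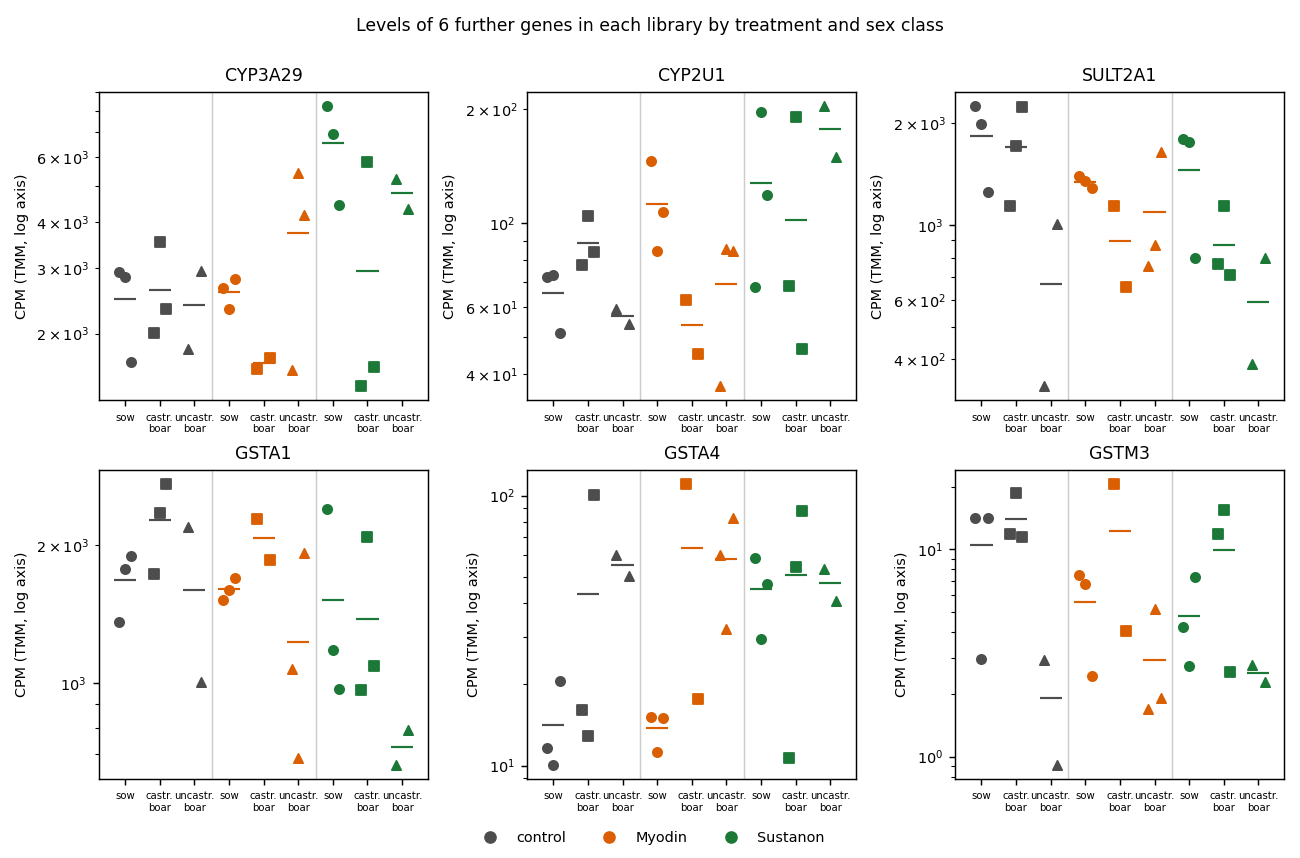
CPM on a log axis in each library for 6 further genes, with colours, markers and lines as in the plot of CYP2B6B. CYP3A29 is above every control in 6 of 8 Sustanon pigs, GSTM3 is at most 5.17 CPM in uncastrated boars of each treatment, and GSTA4 falls into low and high libraries.

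The 2 preparations, Sustanon and Myodin, were also set side by side in pigs without testes. Nandrolone lacks a methyl group that testosterone carries, the esters of the preparations differ, and so do the doses of 4 and 5 mg/kg, so preparation and dose cannot be told apart. CYP2B6B was higher with Sustanon by 3.68 on the log2 scale (95% interval 2.26 to 5.11, adjusted p = 0.0147), the single call among the 23 genes, against 1.55% of tested genes. Leaving out Myodin castrated boar 8 or 9 ended this call. Leaving out the libraries that go against their labels did not (adjusted p = 0.0234). Those libraries are all controls, which this contrast does not compare, so that fit cannot test the doubt about their labels. CYP2B6B, SULT1A3 and SULT1B1 did not overlap between the groups, as did 2.94% of tested genes. SULT1A3 differed by -2.37 (95% interval -3.68 to -1.06, adjusted p = 0.0592), SULT1B1 by -1.32 (-2.09 to -0.54, adjusted p = 0.0687) and CYP3A29 by 1.06 (0.33 to 1.80, adjusted p = 0.110). Without Sustanon castrated boar 2 the CYP3A29 difference was 0.59. SULT2A1 differed by 0.01 with an interval from -0.64 to 0.67, and CYP2A19 by -1.46 with an interval from -3.61 to 0.68, or -3.07 without Sustanon sow 4 and -0.83 without Myodin castrated boar 8.

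Genes that supply, regulate or act beside these enzymes were read from lists. Of 20 measured regulators of 31 listed, 2 rose and 1 fell with Sustanon in pigs without testes, where 3.27% of all tested genes were called higher and 2.06% lower. AHR, the aryl hydrocarbon receptor, was at 90.4 to 188 CPM in Sustanon pigs without testes and at 35.0 to 64.7 CPM in controls, a log2 fold change of 1.54 (SE 0.24, adjusted p = 0.000942), and remained called without the 3 libraries that go against their labels (adjusted p = 0.0287). ESR1, the oestrogen receptor alpha, fell by 0.95 on the log2 scale (adjusted p = 0.00824, and 0.0355 without those libraries). NR0B2, the small heterodimer partner that represses bile acid synthesis, rose by 0.99 (adjusted p = 0.0271, and 0.0906 without those libraries). The CAR gene NR1I3 was at 66.6 ± 17.1 CPM in controls and 73.0 ± 20.7 CPM with Sustanon (SD, n = 6 each).

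Of 5 measured electron donors and haem synthesis genes of 8 listed, none was called by edgeR with Sustanon or Myodin. POR, the oxidoreductase that feeds the P450 enzymes, was at 219 ± 39.9 CPM in controls and 207 ± 44.5 CPM with Sustanon (SD, n = 8 each). The smallest p of the list was that of CYB5A, with a log2 fold change of -0.37 in the edgeR fit (unadjusted p = 0.0184, adjusted p = 0.145) with Sustanon in pigs without testes. Of 10 measured genes of cosubstrate supply of 16 listed none was called against control, and GCLC, which starts glutathione synthesis, was lower with Sustanon than with Myodin by -1.01 (adjusted p = 0.0220). In that contrast, in pigs without testes, 1.55% of tested genes were called. Of 14 tested other conjugation and hydrolysis genes, NQO1, a quinone reductase, fell by 1.34 with Sustanon in pigs without testes (adjusted p = 0.0416, and 0.354 without the libraries that go against their labels). It was the single call of this list there, and 2.06% of all tested genes were called lower. The call was kept in 10 of 24 fits that left out 1 library.

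Of the 6 measured transporters of 16 listed, 2 rose and 1 fell with Sustanon in pigs without testes. Of all tested genes 3.27% were called higher there and 2.06% lower. The 2 that rose are described. SLC10A1, the bile salt uptake carrier, rose by 1.13 (adjusted p = 0.00472), from 175 to 344 CPM in controls to 461 to 656 CPM. SLC22A7, an organic anion carrier, rose by 0.92 (adjusted p = 0.0131). Without the libraries that go against their labels SLC10A1 was still called (adjusted p = 0.0434), and SLC22A7 was not (adjusted p = 0.0656).

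Several P450 and conjugation genes are zoned across the liver lobule, so markers of the zones were measured beside them. The summed level of the 6 measured pericentral markers of 9 listed was 216 to 508 TPM in control and 67.1 to 462 TPM in Sustanon pigs without testes, with medians of 297 and 179 TPM. Of these SLC1A2 rose by 2.17 (adjusted p = 0.0487, and 0.233 without the libraries that go against their labels). It was the single call of the pericentral list, and 3.27% of all tested genes were called higher. The SLC1A2 call was kept in 8 of 24 fits that left out 1 library. The 5 measured periportal markers of 8 listed summed to 11679 to 18279 TPM in controls and 9359 to 11650 TPM with Sustanon. The median of the summed markers was lower with Sustanon in both zones, the ranges overlapping for the pericentral list alone, and their part in the results was not tested. Markers of skeletal muscle summed to at most 3.12 TPM and those of kidney to at most 0.38 TPM, with AQP2 at 0 in every library, and no marker of bile duct, leukocytes, endothelium, stellate cells, red blood cells or intestine was called with Sustanon by edgeR. Of these COL1A2 of the stellate list had the smallest p in pigs without testes, with a log2 fold change of 0.81 (unadjusted p = 0.0161, adjusted p = 0.135). Stellate markers summed to 57.4 to 138 TPM in control and 104 to 185 TPM in Sustanon pigs without testes.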

How the data were processed

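Liver RNA of 24 pigs was measured, 1 library per pig. Per the labels the authors made stranded poly-A libraries, checked the reads with FastQC and aligned them with STAR 2.5 to Sscrofa11.1. The authors deposited raw counts per gene (9267780 to 14017276 per library), and the same libraries as log2(TPM + 1), a log2 scale with pseudocount 1. The counting tool and its treatment of reads shared by similar genes are not given in the sources used here, so values of the CYP2B, CYP3A, CYP4A, SULT1A, UGT2B and GSTA genes, which have close relatives, are uncertain.

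For the tests edgeR 4.0.16 under R 4.3.3 was applied to the counts (filterByExpr, TMM, two-sided quasi-likelihood test, Benjamini-Hochberg over all tested genes, called at an adjusted p under 0.05). SE is the log2 fold change over the root of F. One fit held 3 treatment groups, another 9 groups of treatment and labelled sex. CPM were scaled by TMM, and mean log2 CPM used a prior count of 2. Of the 23 genes, 15 had a RefSeq Sscrofa11.1 position by symbol, printed for those described at length, and all 23 passed both count filters. Symbols came from the deposited tables, where 3779 genes have none. Named were all called genes, in each contrast the 3 genes with the smallest p in each direction whose log2 CPM averaged 1 or more, and the highest of each family. Some further genes, described by levels, were chosen after their values were seen. The genes, lists and tests were chosen with earlier results of these data known. The study names DESeq2 with a fold threshold. Here DESeq2 1.42.0 was run as an alternative without that threshold, which was applied to the edgeR calls only. Further alternatives were limma 3.58.1 on TPM with pseudocounts 1 and 0.1, RLE, no count filter and sex class as covariate. Others were 6 groups, the 2 groups alone, and each library left out. The 6 groups joined castrated boars and sows into 1 class, also for the contrast with uncastrated boars. The scripts were tested on simulated data. The p-values measure the spread between pigs. Results for some genes of the lists are not reported here.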

Additional observations from a re-analysis of the deposited data

Results flagged for a closer look

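Of 69 groups of 4 to 10 pigs tested with Dixon's criterion on the log2 CPM of the 23 genes, 6 held a pig far from the rest, and chance gives about 1 in 20. GSTA4 was 100.4 CPM in control castrated boar 15, where the other 5 control pigs without testes had 10.1 to 20.5 CPM. The same gene was 110.1 CPM in Myodin castrated boar 8, where the other Myodin pigs without testes had 11.2 to 17.7 CPM. GSTM3 was 2.94 CPM in control sow 17, where the other controls without testes had 11.4 to 18.6 CPM. CYP2R1 was 5.87 CPM in Sustanon sow 5, where the others of its group had 11.9 to 16.9 CPM. UGT8 was 42.6 CPM in Myodin sow 10, where the others had 11.4 to 16.6 CPM. SULT2A1 was 656 CPM in Myodin castrated boar 9, where the others had 1139.9 to 1396 CPM.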

How the results depend on the processing

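For the genes named in each contrast, 1408 of 1542 log2 fold changes under the alternatives kept their direction and their side of the threshold, 94 were no longer called, 39 became called and 1 changed sign: GSTA4 with Myodin in pigs without testes was -0.65 without Myodin castrated boar 8, the lowest of the values with 1 library left out, and 1.07 at the highest, without control castrated boar 15. For Sustanon against control over all pigs, where 5 of the 23 genes were called, against 420 of all tested genes, 1 was called without control castrated boar 15 (272 of all), 0 without the 3 libraries that go against their labels (0 of all), 8 by DESeq2 (636) and 3 by limma on log2(TPM + 0.1) (313), and 0 to 7 with 1 library left out. In pigs without testes, with 3 called and 5.32% of all, it was 0 without the 3 libraries (70), 5 by DESeq2 (684) and 2 to 4 with 1 library left out. For Sustanon against Myodin, with 1 called and 136 of all, it was 4 by DESeq2 (471), 2 by limma at either pseudocount (127 and 122), 2 with 6 groups (213) and 0 to 3 with 1 library left out. For uncastrated against castrated boars 1 was called, and 70 of all. The count was 3 by DESeq2 (253), 2 with no count filter (64), 2 by limma on log2(TPM + 1) (91) and 0 to 4 with 1 library left out. With 6 groups it was 3 (433), but for uncastrated boars against castrated boars and sows together. The other contrasts called 0 under every alternative run. By CPM in place of TPM, CYP3A29 ranked 1 and GSTA1 2. The cause of these shifts was not tested. No paired analysis was possible because the groups share no replicate numbers.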
